A study of Mus musculus with 6 samples.

Results

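The genes described here are the chaperones and proteases that fold and degrade proteins inside mitochondria. They are named by function, and were chosen with earlier results of these data known. They are the chaperones Hspd1, Hspe1, Hspa9 and Trap1 and the proteases Lonp1, Clpp, Clpx, Yme1l1, Oma1 and Afg3l2, which are 10 of the 11835 genes in the deposited table. All 10 were among the 11593 genes tested, whose mean level was 0.5 FPKM or more. FPKM is the number of fragments assigned to a transcript, scaled by its length and by the fragments mapped in the library. RNA was sequenced from C2C12 cells, an established mouse myoblast line that fuses into myotubes when serum is withdrawn, and they are labelled as mouse myotube. Cells were moved to medium with 2% horse serum to differentiate. The siNC group had 3 libraries from cells given NC siRNA, a control siRNA, and the siCNN3 group had 3 from cells given CNN3 siRNA, which targets Cnn3, the gene of the actin-binding protein calponin 3. Both groups were otherwise described alike, as the same line, medium and extraction. The labels name neither the harvest time nor which CNN3 siRNA was used, and they do not say that the libraries came from separate cultures, so the p-values measure only the spread between these libraries.

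Most mitochondrial proteins are made in the cytosol and enter the organelle unfolded. The mitochondrial HSP70 encoded by Hspa9 pulls them through the inner membrane and, with the HSP60 and HSP10 chaperonin of Hspd1 and Hspe1, folds them in the matrix. Proteins that stay misfolded are degraded by the matrix proteases LONP1 and CLPXP and by the ATP-dependent proteases of the inner membrane, and myotubes, which are rich in mitochondria, rely on this turnover.

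Hspd1 and Hspe1 lie head to head on chromosome 1 of the mouse build GRCm38, on opposite strands, so that 1 stretch of sequence lies upstream of both. RefSeq promoter windows of build GRCm38.p6, which run from 250 bases before to 50 bases after a start site, were matched for 8 of the 10 members, and none was matched for Hspa9 and Afg3l2. The motifs searched, on both strands, were the heat shock element core GAANNTTC, the composite CHOP and ATF4 core TGATGNAA, the NRF1 core GCGCANGCG and the GABP or ETS core CCGGAAG. The heat shock element core was found in the windows of Hspd1 and Hspe1 alone among the 8 members, and in 7.86% of the 32851 RefSeq windows. The site below is shown because it belongs to both genes. It lies at chr1:55088056-55088085, plus strand, between the start of the main Hspd1 transcript and that of Hspe1, in the first exon of a minor Hspd1 transcript. Its capitals mark the heat shock element core (55088064 to 55088071), which starts 84 bases before the RefSeq start site of Hspe1, and 2 GABP cores on opposite strands that overlap it and each other (55088068 to 55088077). The 250 bases before the Lonp1 start site are shown because Lonp1 was 1 of the members whose FPKM rose. They lie at chr17:56626904-56627153, minus strand, and carry no capitals, since none of these letters is in this window.
Hspd1-Hspe1: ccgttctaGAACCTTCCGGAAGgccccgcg
Lonp1: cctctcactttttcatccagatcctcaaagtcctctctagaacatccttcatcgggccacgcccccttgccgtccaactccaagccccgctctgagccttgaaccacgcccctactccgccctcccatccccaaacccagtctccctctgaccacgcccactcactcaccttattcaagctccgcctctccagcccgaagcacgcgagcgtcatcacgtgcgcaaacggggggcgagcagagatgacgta

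The NRF1 core was found in windows of Clpx, Hspd1 and Oma1, and in 6.25% of all windows. The GABP core was found in those of Clpp, Hspd1, Hspe1 and Yme1l1, and in 8.86% of all windows. The CHOP and ATF4 core was found in 0 of the 8 members and in 3.97% of all windows. A match is a description of the sequence and not a binding site, and the absence of a match says only that these letters are not in this window.

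Cnn3, the targeted gene, had 61.4 to 62.8 FPKM in siNC against 19.0, 39.2 and 25.6 FPKM in siCNN3 1 to 3. Every siCNN3 library lay below every siNC library, with a log2 fold change of -1.19 (SE 0.242) that did not pass the threshold (adjusted p = 0.0669, limma). It passed without siCNN3 2, the library with the highest level of the 3 (-1.46, adjusted p = 0.0475, limma). Of the 12 muscle markers listed, 10 could be tested, and all 10 were lower in every siCNN3 library than in any siNC library (beside 9.35% of all genes tested), 5 of them past the threshold (beside 0.336%), of which Acta1, skeletal muscle actin, had the lowest log2 fold change (-2.12, adjusted p = 0.00473), followed by Mylpf (-1.88, adjusted p = 0.0099) and Tnnc2 (-1.59, adjusted p = 0.0152, limma). That count was 1 without siNC 3, 2 without siCNN3 1, 1 without siCNN3 2 and 3 with a filter at 5 FPKM. Tnnc2, whose call was also lost without siNC 1 (adjusted p = 0.0581, limma), and Myh3 and Mymk, named after their values were seen, passed the filter of 0.5 FPKM only through siNC. Actc1 had no transcript in the table and Ckm was below the filter. The markers' summed FPKM was 180.5 to 213 in siNC and 104 to 124 in siCNN3. Most of that sum was desmin, Des, named after its values were seen. It was at 113 to 125 FPKM in siNC and 84.3 to 103 FPKM in siCNN3. Its log2 fold change (-0.36, adjusted p = 0.196, limma) was the smallest in size of the 10 tested. Among 10 blood and immune cell markers, 6 had no transcript in the table, Ptprc among them, and the sum of the other 4, mostly the haemoglobin genes Hba-a1 and Hbb-bs, was 154 to 427 FPKM in siNC and 34.8 to 47.2 FPKM in siCNN3. Hbb-bs was called lower (-3.27, adjusted p = 0.0264), but not without siNC 1 (adjusted p = 0.0624), siNC 3 (0.0839), siCNN3 1 (0.0911) or siCNN3 2 (0.0956, limma). Of 7 endothelial and neural markers, 2 had a transcript, with sums of 3.11 to 5.03 and 3.22 to 4.11 FPKM, and neither passed (Tek 0.09, adjusted p = 0.867, and Syt1 -0.22, adjusted p = 0.665, limma). Syt1 ran from -0.38 to -0.077 with 1 library left out. The part of these shifts in the results below was not tested, and in bulk RNA fewer cells of a type and less RNA per cell cannot be told apart. Library siNC 1 had 2131 transcripts listed at 0 against 978 to 1333 in the others. Library siCNN3 3 was the lowest of its group in 7 of the 10 members, beside 48.4% of all genes tested. The depth of the libraries is unknown.

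Hspa9 and Lonp1 rose in siCNN3, and the other 8 members did not pass the threshold in either direction. Hspa9 went from a mean of 146 to 309 FPKM and Lonp1 from 46.6 to 92.5 FPKM. The 2 members called higher are 20% of the 10, beside 1.73% of all genes tested, and 0 members were called lower, beside 0.336%. Over both directions 2.06% of all genes tested were called, which is 239 genes, of which 200 were higher and 39 lower (199 higher and 93 lower under quantile normalization). These counts changed when 1 library was left out, which also leaves fewer libraries to the fit. In those fits the log2 fold change stayed between 0.996 and 1.16 for Hspa9 and between 0.889 and 1.10 for Lonp1. Members called higher numbered 0 without siNC 3, siCNN3 1 or siCNN3 2, when 16, 39 and 29 genes in all were higher. Without siNC 1 or siNC 2 there was 1, Hspa9, and without siNC 1 there were 70 genes higher in all. Without siCNN3 3 there were 2, with 444 genes higher. The same 2 members were also the ones past an unadjusted p of 0.05, beside 9.94% of all genes in the higher direction and 6.14% in the lower direction, and the ones whose groups did not overlap, beside 23.1% of all genes (13.8% with siCNN3 above and 9.35% with siCNN3 below). The median log2 fold change was 0.27 over the 10 members, 0.49 over the 4 chaperones and 0.04 over the 6 proteases, with 0.03 over all genes tested. With 1 library left out, the median of the members ran from 0.18 to 0.35. Without siNC 1, Yme1l1 (-0.029), Oma1 (-0.13), Clpx (-0.063) and Afg3l2 (-0.056) were all below 0, and so was the median of the proteases. All log2 values are on the log2(FPKM + 1) scale, siCNN3 minus siNC.

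**Figure D1:**
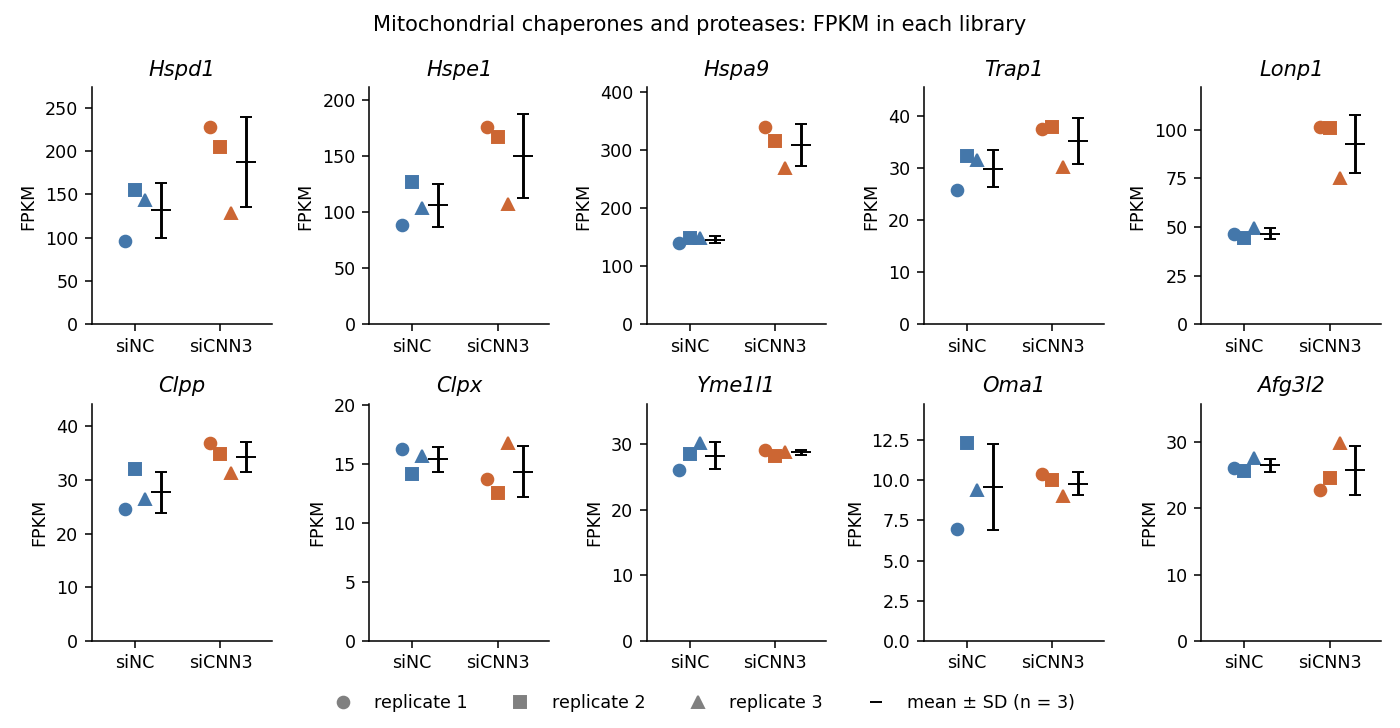
FPKM (y axis, from 0, a scale of its own in each panel) of each member in the 3 siNC and 3 siCNN3 libraries, with the mean and SD of each group (n = 3) beside the points. The groups are apart for Hspa9 and Lonp1 and overlap for the other 8 members, and in the panels of Hspd1 and Hspe1 the siCNN3 replicate 3 lies among the siNC libraries.

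Hspa9, mitochondrial HSP70 or mortalin, is the motor of protein import and the main folding chaperone of the matrix. The siNC libraries 1 to 3 held 139.9, 149.5 and 149 FPKM of it, and the siCNN3 libraries 1 to 3 held 341, 316 and 270.0 FPKM. The siNC libraries lay within 10 FPKM of each other, and the lowest siCNN3 library stood far above them. The group means were 146 ± 5.45 and 309 ± 35.9 FPKM (SD, n = 3), a log2 fold change of 1.07 (SE 0.114, 95% confidence interval 0.80 to 1.34, adjusted p = 0.0099, limma). A smaller log2 fold change was found in 97.2% of the genes tested. Its single deposited transcript, ENSMUST00000025217.8, has 17 exons and 3049 nucleotides and lies on chromosome 18 from 34937414 to 34954357, minus strand (gene ENSMUSG00000024359.10). The call was lost without siNC 3 (adjusted p = 0.0667), siCNN3 1 (0.0523) or siCNN3 2 (0.0647), while the log2 fold change stayed between 0.996 and 1.16 with any library left out (limma). Without siNC 1 it was 1.04 (adjusted p = 0.0449), and without siCNN3 3 it was 1.16 (adjusted p = 0.00305, limma).

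Lonp1 encodes the ATP-dependent matrix protease that degrades misfolded and oxidised proteins and also handles proteins of the mitochondrial nucleoid. Its FPKM was 46.2, 44.2 and 49.4 in siNC and 101, 101 and 75.2 in siCNN3. The groups did not overlap, and siCNN3 3 was the lowest of its group. The means were 46.6 ± 2.62 and 92.5 ± 15.0 FPKM (SD, n = 3), a log2 fold change of 0.96 (SE 0.145, 95% confidence interval 0.62 to 1.31, adjusted p = 0.0301, limma). The gene, ENSMUSG00000041168.10, lies on chromosome 17 from 56614297 to 56626887, minus strand, and the table holds 1 transcript of it with 18 exons. The call was kept without siCNN3 3 (1.10, adjusted p = 0.00506, limma). It was lost without siNC 1 (adjusted p = 0.0867), siNC 2 (0.0793), siNC 3 (0.125), siCNN3 1 (0.125) or siCNN3 2 (0.140), with log2 fold changes from 0.89 to 1.00 in those fits (limma). With siNC 1 and siCNN3 3 both left out, an alternative chosen after the data were seen, Hspa9 was at 1.13 (adjusted p = 0.0085) and Lonp1 at 1.10 (adjusted p = 0.0115, limma).

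The chaperonin genes Hspd1, whose product HSP60 forms the folding chamber, and Hspe1, whose product HSP10 is its lid, did not pass the threshold. The FPKM of Hspd1 was 95.9, 155 and 144 in siNC against 228, 205 and 129 in siCNN3. The FPKM of Hspe1 was 88.4, 127 and 103 in siNC against 176, 167 and 107 in siCNN3. In both genes the siCNN3 libraries 1 and 2 lay above every siNC library and siCNN3 3 lay among them. The log2 fold change was 0.49 for Hspd1 (SE 0.266, 95% confidence interval -0.14 to 1.12, adjusted p = 0.412, limma). For Hspe1 it was 0.48 (SE 0.222, 95% confidence interval -0.05 to 1.01, adjusted p = 0.351, limma), so the interval of Hspd1 includes the value of Hspa9 and that of Hspe1 includes the value of Lonp1. Without siNC 1 the values were 0.28 for Hspd1 (adjusted p = 0.652) and 0.36 for Hspe1 (adjusted p = 0.540), and without siCNN3 1 they were 0.33 (adjusted p = 0.780) and 0.35 (adjusted p = 0.718, limma). Without siCNN3 3 they were 0.74 (adjusted p = 0.118) and 0.70 (adjusted p = 0.0726, limma). With siNC 1 and siCNN3 3 both left out, Hspd1 was called (0.53, adjusted p = 0.0489) and Hspe1 was not (0.58, adjusted p = 0.0666, limma). Hspd1 spans 55077835 to 55088243 and Hspe1 55088132 to 55091307 on chromosome 1. Exons of the pair share 112 bases on opposite strands. GENCODE names 5 pseudogenes of Hspd1, 6 of Hspe1 and 1 of Hspa9, none with a transcript in the table. Whether reads were split among these copies was not tested. How the library marked strand is not given in the sources used here.

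Trap1 encodes the HSP90 of the mitochondrial matrix. It was at 25.7 to 32.2 FPKM in siNC and 30.1 to 37.9 FPKM in siCNN3, and the siCNN3 libraries 1 and 2 lay above the siNC range. Its log2 fold change was 0.23 (SE 0.148, 95% confidence interval -0.12 to 0.58, adjusted p = 0.50, limma), with 0.13 without siNC 1 and 0.33 without siCNN3 3. An exon of Trap1 (chromosome 16, 4039971 to 4077827) shares 54 bases with Dnase1 on the opposite strand.

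CLPP is the proteolytic chamber of the CLPXP protease of the matrix, and CLPX the ATPase that unfolds substrates and feeds them to it. Clpp had 24.6, 32.0 and 26.5 FPKM in siNC against 36.9, 34.8 and 31.3 FPKM in siCNN3. Clpx had 16.3, 14.2 and 15.7 FPKM in siNC against 13.7, 12.6 and 16.8 FPKM in siCNN3. The groups overlapped in Clpp by siCNN3 3 and siNC 2, and in Clpx 2 siCNN3 libraries lay below the siNC range and 1 above it. Clpp had a log2 fold change of 0.30 (SE 0.140, 95% confidence interval -0.03 to 0.64, adjusted p = 0.346) and Clpx of -0.10 (SE 0.147, 95% confidence interval -0.45 to 0.25, adjusted p = 0.774, limma). With 1 library left out, Clpx ran from -0.017 without siCNN3 2 to -0.21 without siCNN3 3 and was -0.063 without siNC 1. Clpp lies on chromosome 17 (56990305 to 56996188) and Clpx on chromosome 9 (65294260 to 65330658).

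In the fit of all 6 libraries the inner membrane proteases gave the smallest differences of the members. That order was not stable, as without siCNN3 2 the value of Clpx (-0.017) was smaller in size than those of Oma1 (0.046), Yme1l1 (0.039) and Afg3l2 (-0.020). Yme1l1, whose product faces the intermembrane space and cuts the fusion protein OPA1, was at 26.0 to 30.1 FPKM in siNC and 28.3 to 29.1 FPKM in siCNN3. Oma1, the stress-activated metallopeptidase that also cuts OPA1, was at 6.98 to 12.3 FPKM and 8.99 to 10.4 FPKM. Afg3l2, a subunit of the protease that faces the matrix, was at 25.6 to 27.6 FPKM and 22.8 to 29.8 FPKM. In Yme1l1 and Oma1 the siCNN3 libraries lay inside the siNC range, and in Afg3l2 the siNC libraries lay inside the siCNN3 range. Their log2 fold changes were 0.03 (95% confidence interval -0.24 to 0.29, adjusted p = 0.935), 0.06 (-0.42 to 0.55, adjusted p = 0.916) and -0.05 (-0.37 to 0.27, adjusted p = 0.894, limma). These signs were not stable: that of Yme1l1 turned under both scalings and without siNC 1, that of Oma1 under quantile normalization and without siNC 1, and that of Afg3l2 without siCNN3 1. The intervals of all 3 end below the lower bounds of Hspa9 and Lonp1, and the difference between genes was not tested. The summed FPKM of the 3 genes was 59.1, 66.5 and 67.1 in siNC and 62.3, 62.8 and 67.7 in siCNN3. Yme1l1 lies on chromosome 2 (23156369 to 23199260) and Oma1 on chromosome 4 (103313812 to 103371868).

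**Figure D2:**
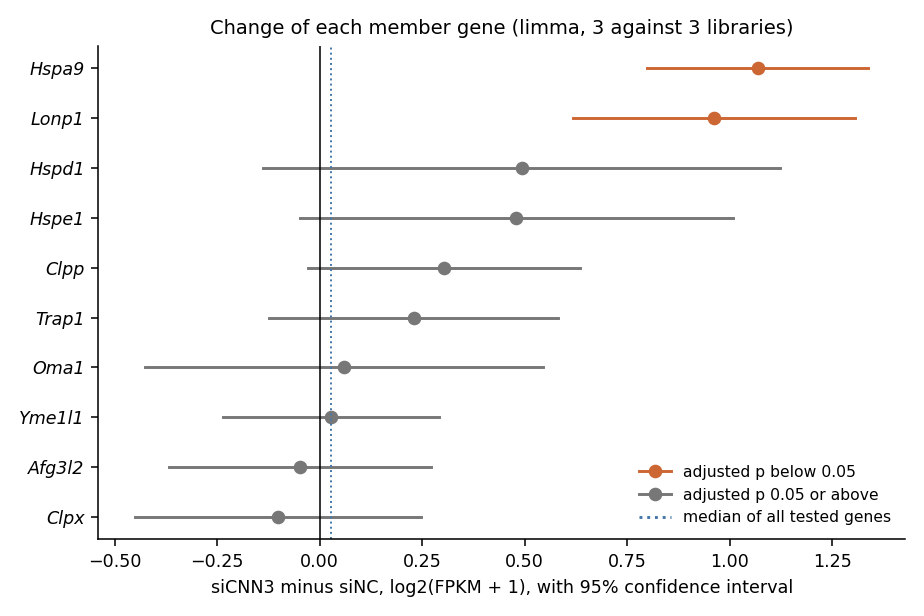
Difference of siCNN3 minus siNC for each member on the log2(FPKM + 1) scale (x axis), with points for the limma estimate and bars for its 95% confidence interval. Hspa9 (1.07) and Lonp1 (0.96) lie apart from 0, the intervals of the other 8 members include 0, and the dotted line is the median of all tested genes (0.03).

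FPKM is scaled by transcript length, so levels are set side by side here. Whether the shared exon bases and pseudogenes given above affect the levels of Hspd1, Hspe1 and Hspa9 was not tested. In siNC the order by mean FPKM was Hspa9, Hspd1, Hspe1, Lonp1, Trap1, Yme1l1, Clpp, Afg3l2, Clpx and Oma1, from 146 down to 9.56 FPKM. The library ranges of neighbours overlapped from Hspa9 to Hspe1 and from Trap1 to Afg3l2, so those neighbours were not separated by their spread. The ranges of Hspa9 and Hspe1, which are not neighbours, did not overlap. Nor did those of the neighbours Hspe1 and Lonp1, Lonp1 and Trap1, Afg3l2 and Clpx, or Clpx and Oma1. In siCNN3 the order of the means differed only in that Clpp stood above Yme1l1. Hspa9 made up 25.9% of the members' summed FPKM in siNC (24.1% to 28.2%) and 35.0% in siCNN3 (33.7% to 37.1%). Lonp1 made up 8.29% and 10.4%, and the share of Trap1 went from 5.25% to 3.98%. A share depends on the other members, and the mean level of Trap1 itself was 29.8 FPKM in siNC and 35.1 FPKM in siCNN3. Together the 10 members held 0.154%, 0.177% and 0.169% of a library's FPKM in siNC and 0.28%, 0.267% and 0.207% in siCNN3.

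The libraries lowest in most members were also the ones most often lowest of their group among all genes tested. In siNC 1, 7 of the 10 members had the lowest value of their group, beside 58.6% of all genes tested. In siCNN3 3 it was also 7, which were Hspd1, Hspe1, Hspa9, Trap1, Lonp1, Clpp and Oma1, beside 48.4% of all genes. The FPKM summed over all transcripts was 322620 in siNC 1 and 347060 to 355590 in the other libraries. The part of these differences in the members' values was not tested. The mean log2 difference of the 10 members from the siNC mean was -0.15, 0.11 and 0.05 in the siNC libraries and 0.44, 0.39 and 0.21 in the siCNN3 libraries. Without Hspa9 and Lonp1 the summed FPKM of the other 8 was 310.0, 427 and 388 in siNC and 554, 520.3 and 382 in siCNN3, so siCNN3 3 lay inside the siNC range there.

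Partner genes were compared within each library, as differences of log2(FPKM + 1). The added 1 keeps the scaling of a library from cancelling in full, and no other scaling was run for the pairs. Hspe1 stood at 0.718 to 0.922 of Hspd1 in siNC and at 0.772 to 0.834 in siCNN3, and the difference of log2 values was -0.30 ± 0.179 and -0.31 ± 0.058 (SD, n = 3). The log2 ratio differed by -0.01 between groups, less than its spread between libraries (exact permutation p = 1). Hspa9 stood at 8.58 to 9.28 times Grpel1, the nucleotide exchange factor of its product, in siNC and at 11.7 to 18.5 times in siCNN3. That log2 difference was 3.09 ± 0.055 and 3.90 ± 0.353 (SD, n = 3), a change of 0.81 without overlap of the groups (exact permutation p = 0.1, adjusted p = 0.5 over 5 pairs). The other pairs overlapped between groups: Clpp minus Clpx changed by 0.41 (exact permutation p = 0.2), Afg3l2 minus its partner subunit Spg7 by 0.33 (exact permutation p = 0.3), and Oma1 minus Yme1l1 by 0.03 (exact permutation p = 0.9). With 1 library left out, the change of Afg3l2 minus Spg7 ran from 0.16 without siNC 1 to 0.51 without siNC 3. Without siNC 1, the values of Hspe1 minus Hspd1 (0.076) and Oma1 minus Yme1l1 (-0.098) turned sign. A two-sided exact test of 3 against 3 libraries cannot give a p below 0.1, so none of these could pass.

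**Figure D3:**
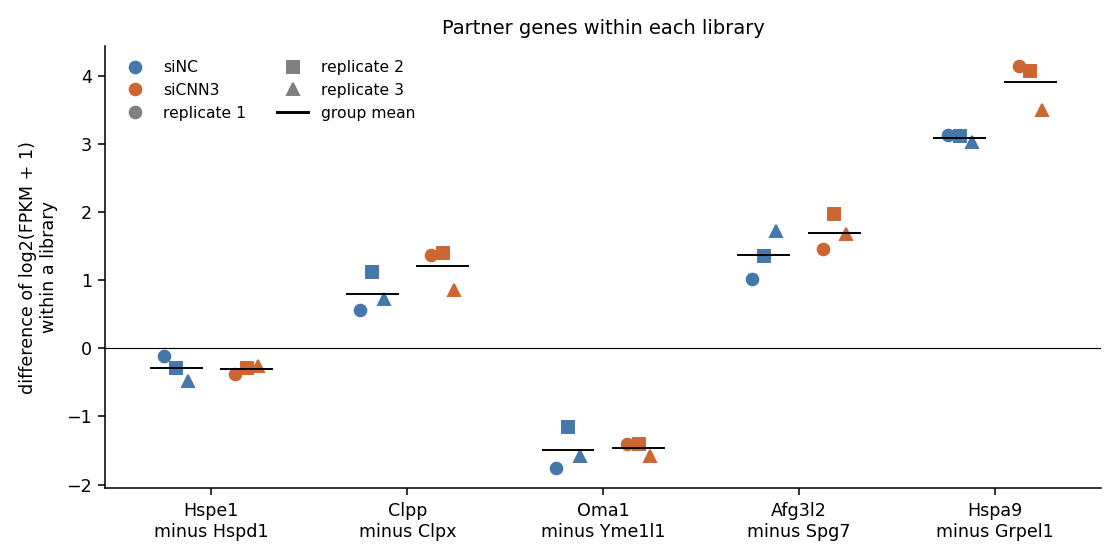
Difference of log2(FPKM + 1) between partner genes within each library (y axis), with points for libraries and bars for group means. Hspa9 minus Grpel1 is the pair without overlap of the groups, with means of 3.09 in siNC and 3.90 in siCNN3, and Hspe1 minus Hspd1 has means of -0.30 and -0.31.

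The table held 14 transcripts of the members, all protein-coding, with 1 transcript for 8 genes and 3 each for Hspd1 and Clpx. The 12-exon Hspd1 transcript ENSMUST00000027123.14 made up 91.5% of the gene's mean FPKM in siNC and 94.1% in siCNN3. In Clpx the 14-exon transcript ENSMUST00000015501.10 (2885 nucleotides) made up 76.8%, 75.0% and 78.3% of the gene in siNC and 47.6%, 86.2% and 60.4% in siCNN3. The 13-exon transcript ENSMUST00000113824.7 (2809 nucleotides) made up 11.5%, 14.1% and 8.99% in siNC and 51.7%, 10.8% and 31.5% in siCNN3. The 4-exon transcript ENSMUST00000147279.1 (577 nucleotides) was at 10.9% to 12.7% in siNC and at 0.743% to 8.07% in siCNN3. The shares were alike in the siNC libraries and differed from library to library in siCNN3, and only the shortest transcript did not overlap between groups. These are the authors' estimates of how reads divide between transcripts that share most of their exons, without an error of their own.

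**Figure D4:**
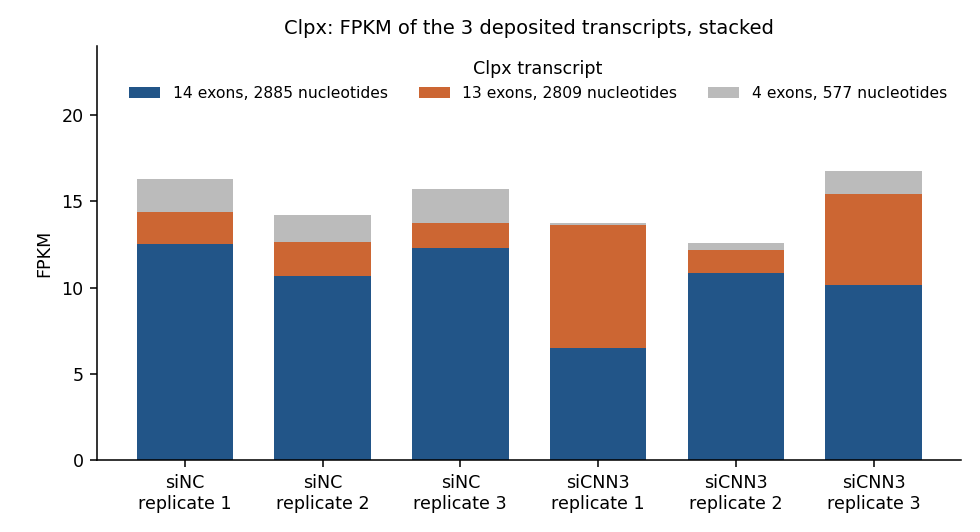
FPKM (y axis, from 0) of the 3 deposited Clpx transcripts, stacked, in each of the 6 libraries. The total lies between 12.6 and 16.8 FPKM, and the 13-exon transcript makes up 51.7% of it in siCNN3 replicate 1 and 10.8% in siCNN3 replicate 2.

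Other genes of mitochondrial protein handling were counted in the same fit. Among the 9 co-chaperones and import-motor partners of Hspa9, 0 passed the threshold, with a median log2 fold change of 0.18 that was 0.060 without siNC 1, 0.020 without siCNN3 2 and 0.28 without siCNN3 3. Dnaja3, the mitochondrial HSP40, went from 18.4 ± 3.12 to 30.2 ± 5.40 FPKM (SD, n = 3), which is 0.68 on the log2 scale (adjusted p = 0.134, limma), with every siCNN3 library above every siNC library. Grpel2, an exchange factor like Grpel1, was at 0.32 (adjusted p = 0.286, limma). Among 18 other mitochondrial proteases, processing peptidases and scaffolds, 0 passed, with a median of 0.06, and those with the smallest p were Immp2l, a subunit of the inner membrane peptidase (0.72, adjusted p = 0.248), and the rhomboid protease Parl (0.91, adjusted p = 0.354, limma). Immp2l was at 0.45 without siNC 2 and Parl at 0.39 without siCNN3 1. Among 17 import channel genes 0 passed, with 14 above 0, beside 6258 of all 11593, and a median of 0.19 that was 0.050 without siNC 1 and 0.34 without siCNN3 3. The small chaperones of the intermembrane space Timm8a1 (0.92, adjusted p = 0.198) and Timm10 (0.70, adjusted p = 0.201) had the smallest p there (limma). Timm8a1 was called without siCNN3 3 (1.23, adjusted p = 0.0349, limma). Without siNC 1 and siCNN3 3 together, Dnaja3 (0.71, adjusted p = 0.0381), Timm8a1 (1.05, adjusted p = 0.0208) and Timm10 (0.74, adjusted p = 0.0472) were called (limma).

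Substrates of the proteases were also counted, and 0 of 8 passed, with a median of 0.11. Opa1, the fusion protein cut by YME1L1 and OMA1 and named here after its values were seen, was at 11.0 to 11.7 FPKM in siNC and 11.1 to 11.3 FPKM in siCNN3. Mrpl32, a ribosomal protein matured by the AFG3L2 protease, was at 0.51 (adjusted p = 0.136) and Pgam5, a phosphatase, at 0.33 on the log2 scale (adjusted p = 0.419, limma). Of 14 genes of mitochondrial DNA and mass, 0 passed, with a median of -0.06 (-0.11 to -0.022 with 1 library left out). Vdac3, a pore of the outer membrane, was at 0.67 (adjusted p = 0.0718) and Polg, the mitochondrial DNA polymerase, at -0.72 (adjusted p = 0.106, limma). Vdac3 was called under median-of-ratios scaling (0.63, adjusted p = 0.0409), without siCNN3 3 (0.77, adjusted p = 0.0294) and without both siNC 1 and siCNN3 3 (0.67, adjusted p = 0.0179), and Polg without both (-0.88, adjusted p = 0.0408, limma). Of 7 mitochondrial antioxidant enzymes 0 passed, with a median of 0.03 that ran from -0.091 without siNC 1 to 0.14 without siNC 2. Among them Sod2 had a value of -0.55 (adjusted p = 0.267) and Glrx2 of -0.41 (adjusted p = 0.299, limma). With 1 library left out, Sod2 ran from -0.71 to -0.36 and Glrx2 from -0.49 to -0.29.

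The list of factors and outputs of the mitochondrial stress response held the most called genes, with 6 of 9 higher (beside 1.73% of all genes tested), 0 called lower (beside 0.336%) and a median log2 fold change of 1.84. Among the 6, Fgf21 was under 0.5 FPKM in siNC and passed the filter only through siCNN3. The signal of this response runs from the mitochondrial protein DELE1 and the kinase HRI, encoded by Eif2ak1, to translation of the factor ATF4, and several other stresses also reach ATF4. Trib3, a pseudokinase, went from 4.03 ± 0.903 to 39.1 ± 16.5 FPKM (2.91, adjusted p = 0.0144, limma). Chac1, an enzyme that degrades glutathione, went from 6.29 ± 1.79 to 48.8 ± 7.68 FPKM (2.79, adjusted p = 0.00473, limma). Ddit3, the factor CHOP, went from 88.5 ± 28.6 to 462 ± 98.0 FPKM (2.40, adjusted p = 0.0099, limma; SD, n = 3 in each group). The siCNN3 libraries lay above the siNC libraries in all of these. The others were chosen after their values were seen: Gdf15 (2.11, adjusted p = 0.0144), Fgf21 (1.71, adjusted p = 0.0442) and Atf4 (1.03, adjusted p = 0.0427) were called, and Atf5 (1.84, adjusted p = 0.0629), Dele1 (0.09, adjusted p = 0.857) and Eif2ak1 (-0.08, adjusted p = 0.886) were not (limma). Atf4 had 136, 189 and 185 FPKM in siNC against 399.8, 356 and 287 FPKM in siCNN3. Atf5, a related factor, had 18.0, 36.9 and 26.8 FPKM against 129.7, 119.6 and 57.6 FPKM. In both genes siNC 1 and siCNN3 3 were the lowest of their groups. In Ddit3 and Gdf15 the same libraries were the highest, with 121.5 FPKM in siNC 1 and 570.1 FPKM in siCNN3 3 for Ddit3, and 19.8 and 65.4 FPKM for Gdf15. The mean log2 difference of the list from the siNC mean was -0.12, 0.13 and -0.02 in siNC and 1.85, 1.74 and 1.34 in siCNN3. Atf5 was called without siCNN3 3 (2.21, adjusted p = 0.0147) and without siNC 1 and siCNN3 3 (1.95, adjusted p = 0.0139, limma). The Atf4 call was lost under quantile normalization (adjusted p = 0.0566), in limma without a trend (0.0604) and without any library other than siCNN3 3 (0.0676 to 0.164). The Fgf21 call was also lost without any library other than siCNN3 3 (adjusted p = 0.114 to 0.169, limma), and its value was 3.51 with a pseudocount of 0.1, with 0.0889 to 0.245 FPKM in siNC. The Trib3 call was lost without siNC 1 (adjusted p = 0.0630), siNC 3 (0.0734), siCNN3 1 (0.0564) or siCNN3 2 (0.0701), the Gdf15 call without siNC 3 (0.0655), siCNN3 1 (0.0621) or siCNN3 2 (0.0647), and the Ddit3 call without siNC 3 (0.0642, limma). The count of 6 fell to 3 without siNC 1, 1 without siNC 3, 2 without siCNN3 1 and 2 without siCNN3 2, and it was 7 without siCNN3 3.

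The chaperones of other compartments served as a comparison. Of 13 cytosolic heat shock genes 0 passed the threshold, with a median of 0.09, and Hspb1 (-0.32, adjusted p = 0.356) and Dnajb1 (0.28, adjusted p = 0.437) had the smallest p (limma). Of 15 chaperones of the endoplasmic reticulum 0 passed, with a median of -0.27 (-0.34 without siNC 1 and -0.10 without siNC 2) and 14 of 15 values below 0, beside 5335 of all 11593. Dnajb9 was the exception at 0.31 (adjusted p = 0.259), and Manf was at -0.38 (adjusted p = 0.289, limma). The difference between these lists and the mitochondrial genes was not tested. All lists were chosen with earlier results of these libraries known, so their directions are a description.

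**Figure D5:**
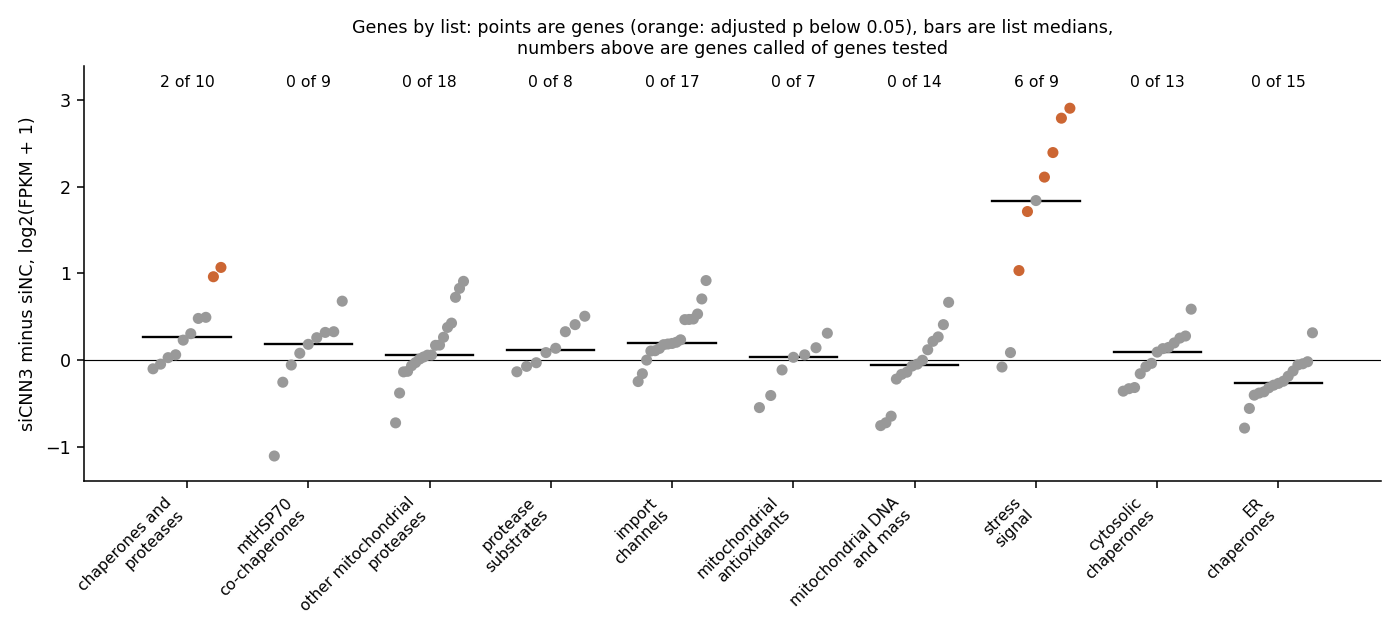
Difference of siCNN3 minus siNC on the log2(FPKM + 1) scale (y axis) for the tested genes of 10 lists, each point a gene, orange where the adjusted p is below 0.05, with a bar at the list median. Called genes are found in the list of members (2 of 10) and in the stress signal (6 of 9), and the medians of the other 8 lists lie between -0.27 and 0.19.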

How the data were processed

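The authors deposited FPKM values for 24023 Ensembl transcripts in each of 6 libraries (siNC and siCNN3, 3 each). The submitters' processing notes name Bowtie 0.12.2 and the builds mm8 and mm10, with no role given, and neither the program behind the FPKM nor its annotation nor any read number is given in the sources used here. Depth is therefore unknown, and intervals come from the spread between libraries. Transcripts were matched by identifier without version to GENCODE on GRCm38 (23949 matched, 74 left out) and FPKM summed per gene. Genes averaging 0.5 FPKM or more were fitted on log2(FPKM + 1) with limma 3.58.1 in R 4.3.3 (mean-variance trend, two-sided, Benjamini-Hochberg over 11593 genes, threshold 0.05). Groups were taken from the labels, and 0 sample columns were left unused. In a test on simulated data for this comparison, a log2 change of 2 was placed in 200 of 11593 genes, all drawn from those at higher levels. The fit found 176 of them among 181 calls, and it made 0 calls with no change placed. The noise was drawn separately for each gene, without shifts shared by a whole library. Smaller changes like those of the members were not simulated, so the test does not give the power for them. Partner genes were compared with exact permutation tests over 5 pairs.

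The members and lists were chosen with earlier results of these data known. Named were all members, Cnn3, and in each list up to 3 called genes with the largest change or, with none called, the 2 with the smallest p. Other genes are said to be named after their values were seen, apart from Grpel1 and Spg7, which stand in the fixed pairs. Hba-a1 was also named after its values were seen. Actc1, Ckm and Ptprc are named for having no transcript or for falling below the filter, and Dnase1 for its shared exon bases. Alternatives were quantile normalization, median-of-ratios scaling, a pseudocount of 0.1, a minimum of 5 FPKM or none, a replicate block, no trend, each library left out, protein-coding transcripts only, and removal of 238 transcripts whose group held both a 0 and a value of 10 FPKM or above (0 of them from the members). Leaving out siNC 1 and siCNN3 3 together was added after the data were seen. Promoter windows came from RefSeq (GRCm38.p6). Motif searches and plots used pandas 2.3.3, numpy 2.4.6 and matplotlib 3.10.9 under Python 3.11.15.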

Additional observations from a re-analysis of the deposited data

How the results depend on the processing

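Of 1116 alternative values for 72 results, 995 kept their direction and their side of the threshold or stayed near the value given. Hspa9 stayed between 0.93 and 1.16 and Lonp1 between 0.84 and 1.10 on the log2(FPKM + 1) scale under every alternative run, and no alternative called a member lower. With the replicate number as a block, 0 members were called (adjusted p = 0.0556 for Hspa9 and 0.101 for Lonp1, limma), with 62 genes higher and 6 lower in all, 3 stress genes and 2 muscle markers. The numbers were not taken to pair the libraries, since same-numbered libraries deviated with correlations of -0.28, 0.31 and -0.02, and not every library correlated best with its own number. With 1 library left out, 0 to 2 members, 16 to 444 higher genes, 4 to 161 lower genes, 1 to 7 stress genes, 1 to 5 muscle markers, 0 to 1 import gene and 0 to 1 gene of mitochondrial DNA and mass were called, and the median was 0.020 to 0.28 for co-chaperones and 1.63 to 2.06 for stress genes. With siNC 1 and siCNN3 3 both left out, 557 genes were higher and 287 lower, and 3 members, 1 co-chaperone, 1 chaperone of the endoplasmic reticulum, 3 import genes and 2 genes of mitochondrial DNA and mass were called, with medians of -0.47 for the endoplasmic reticulum and -0.18 for antioxidants. Median-of-ratios scaling gave 63 lower genes and called 1 gene of mitochondrial DNA and mass. Quantile normalization gave 93 lower genes and medians of 0.082 for co-chaperones and -0.16 for mitochondrial DNA and mass. The filter at 5 FPKM called 3 muscle markers and gave a median of 0.17 for the other proteases, and the pseudocount of 0.1 gave 2.19 for stress genes. Signs turned for Yme1l1 (-0.0081 under median-of-ratios scaling, -0.078 under quantile normalization, -0.029 to 0.074 with 1 library left out and -0.032 without siNC 1 and siCNN3 3), Oma1 (-0.0055 under quantile normalization, -0.13 to 0.24 with 1 left out and -0.072 without both), Afg3l2 (-0.16 to 0.031 with 1 left out) and the endothelial marker Tek (-0.0074 to 0.24 with 1 left out). They also turned for Hspe1 minus Hspd1 (-0.10 to 0.076 with 1 left out and 0.052 without both libraries) and Oma1 minus Yme1l1 (-0.098 to 0.21 with 1 left out and -0.040 without both). With 1 library left out, the median ran from -0.0092 to 0.14 for cytosolic chaperones, -0.091 to 0.14 for antioxidants, 0.0056 to 0.20 for substrates and -0.022 to 0.057 for all genes. The lowest medians under any alternative were -0.038 for cytosolic chaperones, -0.014 for other proteases and -0.045 for all genes. The causes were not tested. Depth is unknown, so no limit from counting can be given.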

Other observations

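Several genes of protein folding and processing, in mitochondria or elsewhere, had values that differed widely within 1 group, and they were chosen after their values were seen. Parl was at 17.6 FPKM in siCNN3 1 and at 5.72 and 4.91 FPKM in the other siCNN3 libraries, with 3.26 to 4.21 FPKM in siNC. Mipep, a peptidase that trims imported proteins, was at 0.460 FPKM in siNC 2 and at 5.39 to 7.20 FPKM in the other libraries. Xpnpep3 was at 0.775 FPKM in siCNN3 2 and at 4.72 to 6.97 FPKM in the other libraries. Hspa5, the HSP70 of the endoplasmic reticulum, was at 368 FPKM in siCNN3 1 and at 120 and 158 FPKM in the other siCNN3 libraries, with 298 to 392 FPKM in siNC. Dnlz, a partner that keeps the product of Hspa9 soluble, was at 2.97 and 5.69 FPKM in siNC 1 and 2 and at 0.554 to 0.640 FPKM in the other 4 libraries.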
